A study of Mus musculus with 4 samples.

Results

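The regions described here are the accessible sites at the centromeric ends of the mouse autosomes, called by ATAC-seq in J1 embryonic stem cells. J1 is a line of 129SV strain origin, grown here without feeder cells in 15% serum with leukemia inhibitory factor. ATAC-seq uses the Tn5 transposase to cut and tag open chromatin, here in nuclei that were then sequenced as paired reads. The DR+/+ population was MERVL+/Zscan4c+ and the DR-/- population lacked both, with 2 libraries of each. Peaks of the 4 lists that overlapped by 1 bp or more were merged into 50231 union regions, of which 47709 lay on chromosomes 1 to 19. A region was a member if it started before position 6 Mb of its chromosome on mm9, whichever lists it occurred in. This gave 1540 members, which were compared with the 46169 regions on the rest of the same chromosomes. The choice used position only and no measured value of accessibility.

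Mouse chromosomes carry their centromere at one end. Minor satellite repeats lie under the kinetochore, and longer arrays of major satellite beside them form the pericentromeric heterochromatin, which gathers into chromocentres in the nucleus. These arrays are not assembled in mm9, where the sequence of an autosome begins near 3 Mb. MERVL is an endogenous retrovirus and Zscan4c a member of a gene family, both active in the early embryo, and the 2C-like cells that express them are known for less compact chromocentres. Whether the sites next to the gap differ in accessibility between the populations is the question that the comparison addresses.

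The members reached up to the gap. The region nearest to the gap started at position 3000038, on chromosome 9, and 15 of the 19 chromosomes had a region in the first 50 kb after 3 Mb. Chromosome 8 was the one whose earliest region lay deepest, at 3179675. In the GRCm38 annotation of RefSeq, which is of another build and was not joined to the peaks, the protein-coding genes met in order from the centromeric end are Xkr4, Rp1 and Sox17 on chromosome 1 and Insr and Arhgef18 on chromosome 8. Sox17 encodes an endoderm transcription factor and Insr the insulin receptor. On chromosome 12 the order begins with Rab10, Kif3c, Asxl2, Dtnb, Dnmt3a and Pomc. Dnmt3a encodes a de novo DNA methyltransferase and Pomc a hormone precursor. On chromosome 9 it begins with Alkbh8, which encodes a tRNA-modifying enzyme, and on chromosome 17 with Scaf8.

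For DR+/+ replicate 1 the authors listed 40933 peaks and for DR+/+ replicate 2 they listed 26866, against 21630 for DR-/- replicate 1 and 24432 for DR-/- replicate 2. Their read depth is not given, and the median peak rested on 15 to 16 reads at its summit in every list. The lowest local background of a list, recovered as described further on, was 1.66 and 1.62 reads in DR+/+. In DR-/- replicates 1 and 2 it was 1.31 and 1.47 reads, below both DR+/+ lists. The part of depth in the list lengths was not tested. No label tells if replicates were cultured separately, so p-values measure a spread that may be technical. Because the lists differ in length, most values below are shares within 1 library. With 2 libraries on each side, 0.333 is the smallest two-sided p an exact permutation test can return, so such a test could not pass 0.05 here. The MERVL and Zscan4c status of the populations was not checked against the peaks, since no annotation of mm9 was used.

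Called regions were densest beside the gap and less dense further along the chromosome, though not in an even decline. The 19 chromosomes together held 604 union regions between 3 and 4 Mb, 514 between 4 and 5 Mb and 422 between 5 and 6 Mb. That is 31.8, 27.1 and 22.2 regions per Mb and chromosome. The next 6 steps of 1 Mb, up to 12 Mb, held between 16.6 and 21.3. Of the 604 regions 98 lay in the first 50 kb, 47 of them in a chromosome 9 block of low enrichment described further on. Density was nearly level from 3.3 to 5 Mb. It was 2.71, 2.62 and 2.71 regions per 100 kb and chromosome from 3.3, 3.5 and 4 Mb on. A typical centromere-proximal window, from 3 to 6 Mb, held 73 regions (the median of 19 windows), whereas the median of the 775 other full windows of 3 Mb was 55. In 16 of 19 chromosomes the centromere-proximal window held more regions than the median of the chromosome's other windows. It was the densest window of its chromosome in 2 cases, chromosomes 9 and 11.

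**Figure D1:**
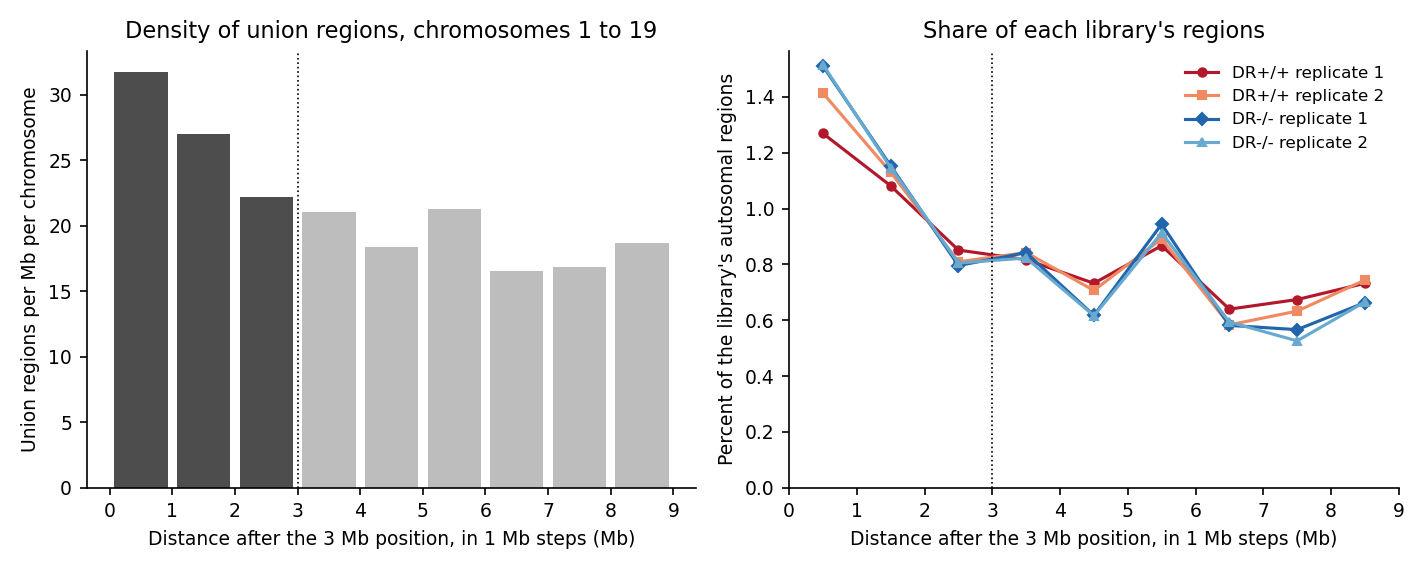
The left panel plots union regions per Mb and chromosome in 1 Mb steps (bars, members dark and regions beyond the limit light), and the right panel the percent of each library's autosomal regions that fell in each step (1 line per library, DR+/+ in red tones and DR-/- in blue tones). Density was 31.8 in the step nearest to the gap, and in that step both DR+/+ libraries lay below both DR-/- libraries.

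The centromere-proximal regions made up a slightly smaller share of the DR+/+ lists. Members were 1211 of 37818 autosomal regions present in DR+/+ replicate 1 (3.20%, 95% Wilson interval 3.03 to 3.38%) and 816 of 24331 in DR+/+ replicate 2 (3.35%, 3.13 to 3.59%). In DR-/- replicates 1 and 2 they were 678 of 19596 (3.46%, 3.21 to 3.73%) and 771 of 22233 (3.47%, 3.24 to 3.72%). Both DR+/+ shares lay below both DR-/- shares, but the intervals, which cover counting error only, overlapped. The means were 3.28 ± 0.107% in DR+/+ and 3.46 ± 0.00561% in DR-/- (SD, n = 2 each), a difference of -0.186 percentage points (exact two-sided permutation test, p = 0.333, the smallest it can give). The difference was -0.488 percentage points in the stronger 50% of each list and -0.124 without regions of high local background, described further on. In lists of equal length it was -0.172. Both DR+/+ shares lay below both DR-/- shares in each of these settings.

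That difference lay in the step nearest to the gap. Between 3 and 4 Mb fell 1.27% and 1.41% of the regions of DR+/+ replicates 1 and 2, against 1.51% and 1.52% of those of DR-/- replicates 1 and 2, a difference of -0.172 percentage points. Between 4 and 5 Mb the shares were 1.08% and 1.13% in DR+/+ and 1.15% and 1.15% in DR-/-. Between 5 and 6 Mb they were 0.851% and 0.810% in DR+/+ and 0.796% and 0.805% in DR-/-. The populations were thus apart in all 3 steps, with DR+/+ below DR-/- in the 2 nearer to the gap and above it in the step up to the limit. Each step gave p = 0.333 in the exact permutation test, the smallest it can give. The populations were also apart in 4 of the 6 steps from 6 to 12 Mb, with DR+/+ above DR-/- in 3 of them, so such separation was frequent along the chromosomes.

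Presence by population asked which of these sites were called in 1 population alone. A region missing from a list was not called there, which does not show that the site was closed. Of the 1540 members, 112 occurred in both DR+/+ lists but in no DR-/- list (7.27%, 95% Wilson interval 6.08 to 8.68%). On the rest of the chromosomes these DR+/+-only regions were 4144 of 46169 (8.98%, 8.72 to 9.24%), and over all autosomal regions 8.92%. The difference of -1.70 percentage points had a 95% counting interval of -2.93 to -0.274. DR-/--only regions numbered 18 members (1.17%, 0.741 to 1.84%) against 650 in the rest (1.41%, 1.30 to 1.52%) and 1.4% over all, a difference of -0.239 points whose interval of -0.682 to 0.440 spanned 0. For each DR-/--only region there were 6.22 DR+/+-only regions among the members and 6.38 in the rest. Both DR+/+ lists were longer than both DR-/- lists, and the part of list length in these ratios was not tested. The DR+/+-only difference kept its sign in all alternatives, but its interval spanned 0 in 5 of them. These were without DR+/+ replicate 1 (-2.07, -4.31 to 0.351), without DR-/- replicate 1 (-1.52, -3.04 to 0.199), limits of 5 Mb (-1.53, -2.95 to 0.173) and 9 Mb (-0.367, -1.40 to 0.780), and a reciprocal overlap of 50% (-0.965, -2.24 to 0.518). Without DR+/+ replicate 2 it was -3.79 points (-6.26 to -1.24). Regions close to one another are not independent, so these intervals describe the 4 lists and are no test of the populations.

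The share of regions present in all libraries was higher among members, though not clearly so away from the gap. Of the members 432 were present in all 4 lists (28.1%, 25.9 to 30.3%), against 11418 regions in the rest (24.7%, 24.3 to 25.1%) and 24.8% over all autosomal regions. The difference was 3.32 percentage points (counting interval 1.10 to 5.65). The share of these common regions was 32.6% between 3 and 4 Mb, 28.2% between 4 and 5 Mb and 21.3% between 5 and 6 Mb, the last being below that of the rest. DR+/+-only regions made up 7.12%, 7.78% and 6.87% of the same steps, and 10.3% of the regions from 6 to 9 Mb. For members from 3.1 Mb on the common difference was 2.12 points (-0.157 to 4.52), and without regions of high local background it was 2.02 (-0.212 to 4.37), so both counting intervals spanned 0. With the limit at 9 Mb it was 1.80 (0.123 to 3.55).

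**Figure D2:**
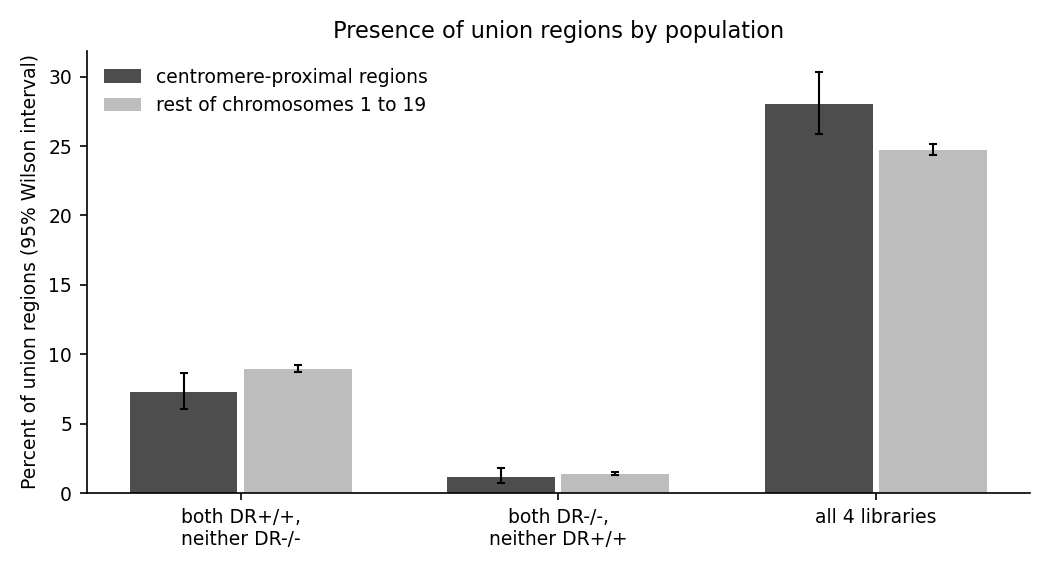
Bars give the percent of union regions in each presence class for centromere-proximal regions (dark) and for the rest of chromosomes 1 to 19 (light), with 95% Wilson intervals that cover counting error. DR+/+-only regions were 7.27% of members and 8.98% of the rest, and common regions 28.1% and 24.7%.

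Counted by single libraries, 78.6% and 53.0% of the members were present in DR+/+ replicates 1 and 2, against 44.0% and 50.1% in DR-/- replicates 1 and 2. The shares of the rest were 79.3% and 50.9% in DR+/+ and 41.0% and 46.5% in DR-/-. Members were therefore found more often than other regions in 3 of 4 libraries, the exception being DR+/+ replicate 1, the longest list. Of the members 661 occurred in 1 list (42.9%, against 44.0% of the rest). Private to DR+/+ replicate 1 were 383 members (24.9%, against 26.9% of the rest).

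Between 5 and 6 Mb lay 22.2 regions per Mb and chromosome, and between 6 and 7 Mb 21.1. In region density the 6 Mb limit thus did not mark a step. The last 100 kb inside it held 44 regions on the 19 chromosomes, with 9 common, 2 DR+/+-only and 2 DR-/--only. The 100 kb just outside held 47 regions, with 15 common, 2 DR+/+-only and 1 DR-/--only. These class counts are too small to show or exclude a step. DR+/+-only regions were 7.27% of members (Wilson interval 6.08 to 8.68%) and 10.3% of regions from 6 to 9 Mb (8.69 to 12.2%). Those intervals, which cover counting error only, did not overlap. For common and DR-/--only regions they overlapped. From 5 to 6 Mb and from 6 to 7 Mb the DR+/+-only shares were 6.87% and 9.50%, with overlapping intervals. The last member was chr10:5999455-5999688, with 4.58-fold enrichment in DR+/+ replicate 2 and 6.16-fold in DR-/- replicate 2. The region just outside was chr9:6002420-6002540, present only in DR+/+ replicate 1 at 4.20-fold.

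The sequence within 50 kb of the gap stood apart from the other members in local read density. From the fold enrichment and p-value that the authors' files give for each peak, the number of reads at the summit and the local background could be recovered. The background is given here as a multiple of the lowest background in the same list. In the first 50 kb lay 98 members, of which 47 were on chromosome 9, 14 on chromosome 11, 7 on chromosome 18 and 6 on chromosome 4. Their density was 10.3 regions per 100 kb and chromosome, compared with 2.42 in the next 50 kb and 3.74 in the 100 kb after that. The median background of their peaks was 33.9 and 43.0 times the lowest in DR+/+ replicates 1 and 2, against 55.2 and 49.8 times in DR-/- replicates 1 and 2. These medians mix chromosome 9 with the others, and chromosome 9 gave 40 of 79 and 35 of 66 of the regions in DR+/+, against 36 of 58 and 40 of 65 in DR-/-. From 3.5 Mb on, medians were between 1.40 and 1.75 in every library, much like the rest of the chromosomes (1.42 and 1.46 in DR+/+, 1.61 and 1.59 in DR-/-).

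Most of this came from a single block on chromosome 9. Between chr9:3000038 and 3038254, 47 union regions followed one another with a median spacing of 666 bp between starts. DR+/+ replicates 1 and 2 had 40 and 35 of them, and DR-/- replicates 1 and 2 had 36 and 40. All 4 lists shared 30 (63.8%), and 3 were DR+/+-only. The median peak of the block rested on 174 and 191 reads in DR+/+ and 161 and 157 in DR-/-, over a median background of 103 and 113 reads in DR+/+ and 88.9 and 87.5 in DR-/-. Enrichment over that background was low, with medians of 1.73-fold and 1.70-fold in DR+/+ and 1.82-fold and 1.78-fold in DR-/-. Beyond 6 Mb the medians lay between 4.85-fold and 5.06-fold in the 4 libraries. Many peaks of this block thus lay on a plateau of reads. How reads that map to several places were treated is not given in the sources used here, and its part in these values was not tested.

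The read density of the block did not separate the populations when taken relative to the lowest background of each list. Over the 30 common regions the median background was 62.7 and 69.6 times the list's lowest in DR+/+, against 68.0 and 61.3 times in DR-/-, so the populations overlapped. The means were 66.2 ± 4.88 in DR+/+ and 64.7 ± 4.68 in DR-/- (SD, n = 2 each), a difference of 1.50 (exact two-sided permutation test, p = 0.667). Without DR+/+ replicate 2 it was -1.24, and without DR-/- replicate 2 it was -1.81. Set against the median background of the other autosomal peaks, the values were 44.3 and 47.8 in DR+/+ and 42.3 and 38.5 in DR-/-, which did not overlap (p = 0.333 in the exact permutation test, the smallest it can give). DR+/+ had the higher mean on both scales, but the populations were apart on the second alone, and on the first the direction changed with the library left out. These measures were chosen after the data were seen.

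**Figure D3:**
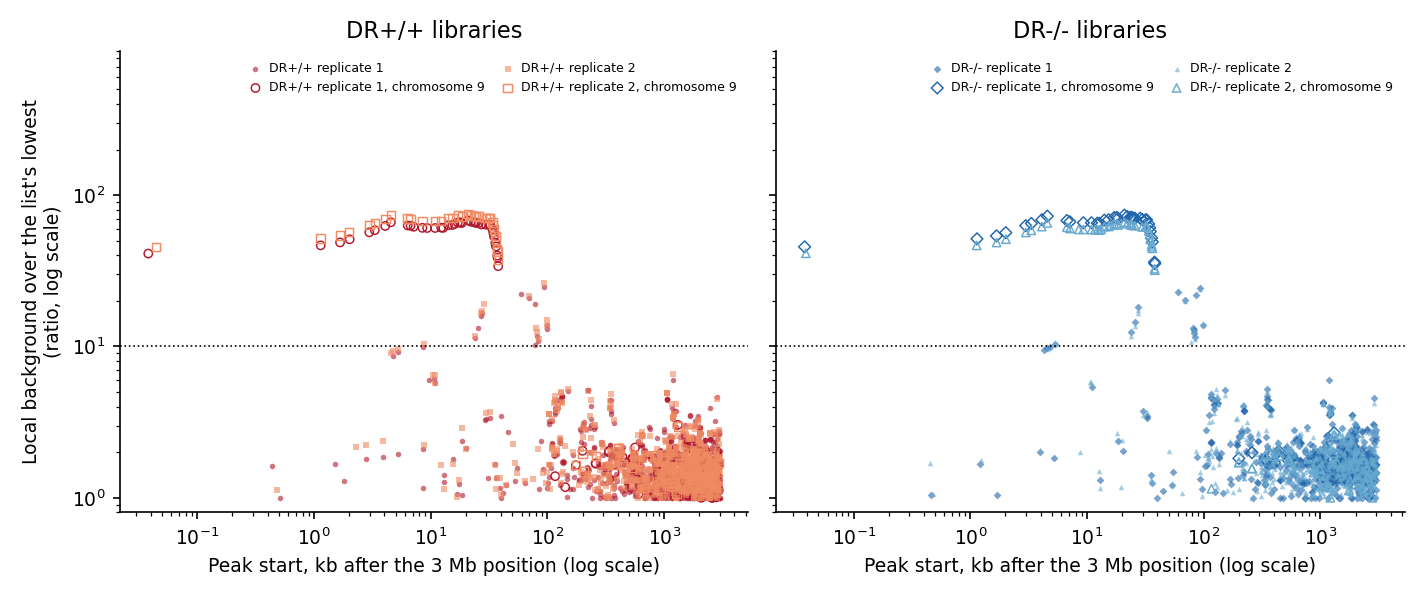
Each point is a member peak, with its distance from the 3 Mb position (kb, log scale) and its local background as a multiple of the lowest in its list (log scale), for the DR+/+ libraries on the left and the DR-/- libraries on the right; open symbols are chromosome 9 and the dotted line marks 10 times the lowest. In all 4 libraries the chromosome 9 block forms a plateau that drops near its end, and most other members lie between 1 and 10.

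High background was frequent among the members relative to the rest. Peaks with a background of at least 10 times the lowest numbered 53 and 47 in DR+/+ replicates 1 and 2 (4.29% and 5.61% of member peaks), and 50 and 55 in DR-/- replicates 1 and 2 (7.09% and 6.85%). In the rest such peaks made up 0.112% and 0.175% in DR+/+ and 0.131% and 0.137% in DR-/-. The member peaks with high background belonged to 65 regions, with 47 on chromosome 9, 12 on chromosome 11, 4 on chromosome 17 and 2 on chromosome 18. Of these 65, 38 were common (58.5%) and 5 DR+/+-only (7.69%), while 0 were DR-/--only. The 59 regions of the rest with such a background split alike, with 32 common (54.2%), 4 DR+/+-only (6.78%) and 0 DR-/--only. Over all autosomal regions the DR-/--only share was only 1.4%, so a count of 0 does not set these members apart. Among the 65 members a count of 0 allows up to 3 regions, or a share of 4.62%, and the Wilson interval reaches 5.58%. In the first 50 kb of the chromosomes other than 9, the median background was 1.87 and 2.24 times the lowest in DR+/+ and 2.36 and 2.68 times in DR-/-. On that scale both DR-/- values were above both DR+/+ values. Over the median background of the other autosomal peaks the values were 1.32 and 1.54 in DR+/+ and 1.47 and 1.68 in DR-/-, where the populations overlapped.

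Among the common members were some of the strongest peaks of the whole lists. The region chr12:3109827-3110133, the earliest one on that chromosome, ranked first in both DR+/+ lists, first in DR-/- replicate 2 and second in DR-/- replicate 1. Its enrichment was 33.2-fold and 35.7-fold in DR+/+ replicates 1 and 2, and 34.7-fold in both DR-/- replicates, with 209 and 225 reads at the summit in DR+/+ and 193 and 195 in DR-/-. Its background was far below that of the chromosome 9 block, at 3.20 and 3.29 times the lowest in DR+/+ and 3.51 and 3.15 times in DR-/-. It was still above the medians of the rest, 1.42 and 1.46 in DR+/+ and 1.61 and 1.59 in DR-/-. The region chr3:5860331-5860838 followed with 18.1-fold and 19.2-fold enrichment in DR+/+ and 19.6-fold and 20.2-fold in DR-/-, ranking 12 and 10 in DR+/+ and 13 and 10 in DR-/-. Next came chr2:5300100-5300464 (20.9-fold and 20.2-fold in DR+/+, 20.1-fold and 21.1-fold in DR-/-) and chr6:3150746-3151617 (11.5-fold and 11.7-fold in DR+/+, 13.8-fold and 13.7-fold in DR-/-). The other leading members were chr9:3258777-3259089, beyond the block described above, and chr13:3372061-3372961. Of the 100 strongest peaks of each list, 6 and 6 in DR+/+ and 7 and 7 in DR-/- were members, although members made up 3.01% and 3.12% of the DR+/+ lists and 3.26% and 3.29% of the DR-/- lists.

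The widest common member after merging was chr17:3081514-3082877, at 1364 bp. The strongest peak within it measured 1329 and 1364 bp in DR+/+ and 310 and 177 bp in DR-/-. Only the strongest peak of each list was measured, so a stretch split into several peaks would look narrower. That peak was enriched 3.27-fold and 3.30-fold in DR+/+ replicates 1 and 2, against 3.47-fold and 3.50-fold in DR-/- replicates 1 and 2. Its background was 11.7 and 12.5 times the lowest in DR+/+ and 12.2 and 11.9 times in DR-/-. The next widest, chr8:3913521-3914570 and chr7:5811414-5812437, measured 1050 and 1024 bp after merging, on ordinary backgrounds of 1.54 to 2.06 times the lowest. On chromosome 8 the strongest peak measured 263 and 683 bp in DR+/+ and 400 and 144 bp in DR-/-. On chromosome 7 it measured 1011 and 219 bp in DR+/+ and 528 and 326 bp in DR-/-. The populations overlapped in both. Single peaks, which are not comparable with merged widths, were mostly narrow. The median peak of the members was 186 and 191 bp wide in DR+/+ and 176 bp in both DR-/- libraries, against 188 and 189 bp in DR+/+ and 173 and 176 bp in DR-/- for the rest. The ratio of the medians was 1.00 ± 0.0119 (SD over the 4 libraries).

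In rank within their lists, members lay at or slightly above the middle. The median percentile of the q-value, where 100 is the strongest peak, was 51.8 and 49.4 for members in DR+/+ replicates 1 and 2, against 54.9 and 54.5 in DR-/- replicates 1 and 2. Peaks of the rest had medians of 50.1 and 50.0 in DR+/+ and 50.0 and 50.0 in DR-/-. The difference between members and rest was 0.544 ± 1.70 percentile points in DR+/+ and 4.74 ± 0.247 in DR-/- (SD, n = 2 each; exact permutation test, p = 0.333, the smallest it can give). Both DR-/- values were above both DR+/+ values. A percentile depends on the length of its list, so the lists were also reduced to their strongest 21630 peaks. The differences between members and rest were then 1.72 and 2.09 in DR+/+ and 4.91 and 4.57 in DR-/-, apart in the same direction (exact permutation test, p = 0.333). For member peaks of the full lists from 3.1 Mb on, the medians were 51.4 and 48.2 in DR+/+ and 52.8 and 54.0 in DR-/-. Among common regions, the mean summit pileup of members over that of the rest was 1.53 and 1.68 in DR+/+ and 1.65 and 1.59 in DR-/-, and these ratios overlapped. The medians of the same pileups were 24 and 21 reads in DR+/+ and 19 and 21 in DR-/- for members, against 23 and 19 in DR+/+ and 17 and 20 in DR-/- for the rest.

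The DR+/+-only members lay below the middle of their lists, as DR+/+-only regions did in the rest. Their median percentiles in the DR+/+ lists were 41.0 (replicate 1) and 31.4 (replicate 2), against 45.3 and 33.5 for those in the rest, and their median merged width was 212 bp, against 228 bp. The one with the highest mean percentile, chr9:3037129-3037293, lay at the end of the chromosome 9 block, with 2.03-fold and 2.13-fold enrichment over a background of 39.9 and 43.8 times the lowest in DR+/+ replicates 1 and 2. Outside that block the leading ones were chr2:4577868-4578149 (6.78-fold and 6.55-fold, with 21 and 17 reads at the summit) and chr8:3319311-3319492 (7.46-fold and 5.80-fold, with 22 and 16 reads). They were followed by chr9:5663922-5664222 (6.90-fold and 5.58-fold), chr15:5696566-5696938 (5.55-fold and 5.85-fold) and chr2:3590946-3591065 (5.64-fold and 6.11-fold). All 5 stood on backgrounds of 1.00 to 1.70 times the lowest.

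A minority of the DR+/+-only members lay close to common regions, though a larger share than in the rest. Of the 112, 23 started within 10 kb of the start of a common region (20.5%), compared with 12.4% of the DR+/+-only regions in the rest. The median distance was 44919 bp among members and 75841 bp in the rest. DR-/--only members were at least as close, with 4 of 18 within 10 kb (22.2%) against 18.6% in the rest. Their median distances were 31751 bp and 45156 bp. Regions of all kinds were denser near the gap, and the part of that density in these differences was not tested. By count, chromosome 9 carried 14 of the DR+/+-only members, chromosome 7 carried 10 and chromosome 14 carried 9, whereas chromosomes 5 and 17 carried 1 each. As a share of the chromosome's members these were 12.1%, 7.94% and 6.92%, and 1.67% and 2%, against 8.92% over all autosomal regions. The highest shares were on chromosomes 15 (12.9%) and 1 (12.5%).

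The 18 DR-/--only members were few and scattered. The leading ones were chr5:3386759-3387097 (5.37-fold and 6.32-fold enrichment in DR-/- replicates 1 and 2), chr3:3124057-3124182 (6.57-fold and 5.65-fold), chr11:5641284-5641519 (6.78-fold and 5.26-fold) and chr15:4299275-4299428 (5.67-fold and 5.77-fold). Each rested on 15 to 19 reads at the summit. Chromosomes 11 and 13 held 3 each, and 8 chromosomes, 9 among them, held none.

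The chromosomes differed widely in what their centromeric ends held. Chromosomes 14 and 7 had the most members, 130 and 126, and chromosomes 17 and 10 the fewest, 50 and 52. On chromosome 14 the libraries had 78 and 52 regions in DR+/+ and 42 and 53 in DR-/-, and 76 of the 130 were called in a single list (58.5%, against 42.9% over all members). Only 15 regions were common there (11.5%). Chromosome 7 had 105 and 69 regions in DR+/+ and 68 and 65 in DR-/-, of which 42 were common (33.3%). The share of common regions ranged from 11.1% on chromosome 3 to 41.1% on chromosome 16 and 40.5% on chromosome 9.

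**Figure D4:**
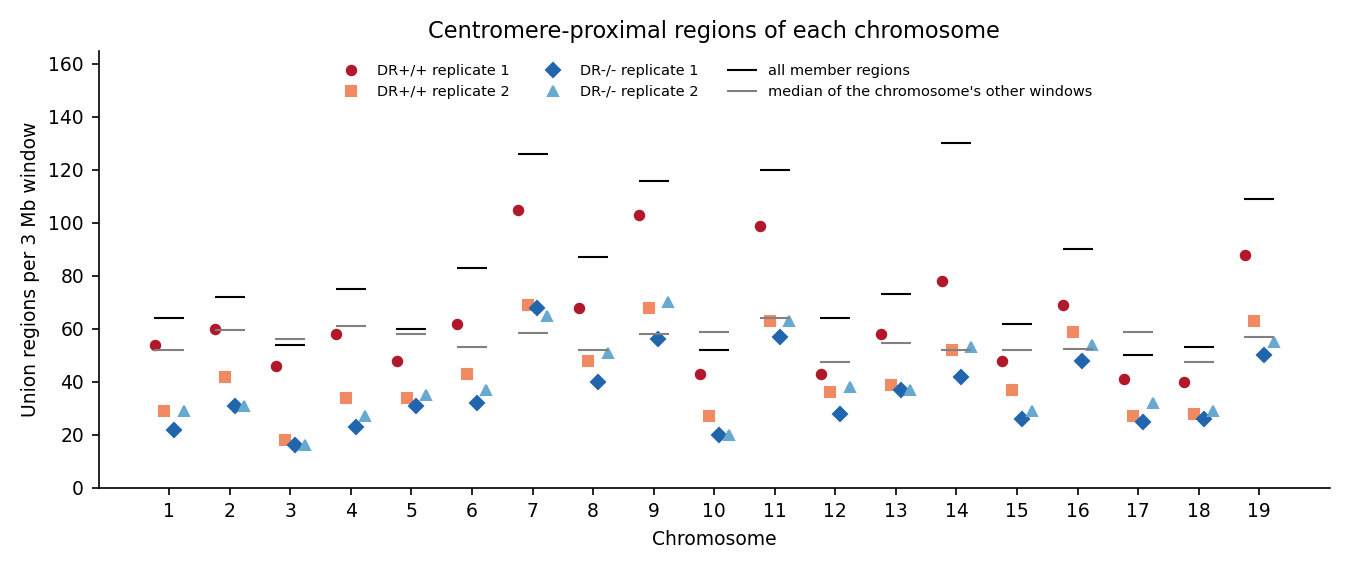
For each autosome the points give the number of centromere-proximal regions present in each library (DR+/+ in red tones, DR-/- in blue tones), the black dash all member regions of the chromosome and the grey dash the median count in its other windows of 3 Mb. Chromosomes 7, 9, 11, 14 and 19 stand out, with 109 to 130 member regions each.

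The share of each library that fell in the centromere-proximal window was then compared window by window. Each autosome was cut into windows of 3 Mb, and the log2 share of regions present was tested with limma over all 812 windows, with Benjamini-Hochberg adjustment. Of the 19 centromere-proximal windows 0 passed an adjusted p of 0.05, and 1 had an unadjusted p below 0.05. Of all windows, 75 were called (9.24%), and the unadjusted p was below 0.05 in 239 (29.4%), so the centromere-proximal windows were called no more often than windows in general. Their log2 fold change of DR+/+ over DR-/- was below 0 in 12 and above 0 in 7, with a median of -0.13, against a median of -0.00344 and 50.5% below 0 over all windows. Over all windows 0 passed without DR+/+ replicate 1 (144 with an unadjusted p below 0.05) and 0 without DR+/+ replicate 2 (166). Those fits leave DR+/+ with 1 library, which is assumed to vary like the DR-/- libraries, and have less power.

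The lowest values were on chromosomes 17, 12 and 18. On chromosome 17, 41 and 27 regions were present in DR+/+ replicates 1 and 2, against 25 and 32 in DR-/- replicates 1 and 2, or 1.08 and 1.11 per 1000 autosomal regions in DR+/+ and 1.28 and 1.44 in DR-/-. Both DR+/+ shares were the lower ones, with a log2 fold change of -0.31 ± 0.137 (SE; limma, adjusted p = 0.136). Chromosome 12 had 43 and 36 regions in DR+/+ and 28 and 38 in DR-/- (-0.28 ± 0.144; limma, adjusted p = 0.199), with overlapping shares. Chromosome 18 had 40 and 28 in DR+/+ and 26 and 29 in DR-/- (-0.26 ± 0.137; limma, adjusted p = 0.199).

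The highest values were on chromosomes 3, 4 and 10. On chromosome 3, 46 and 18 regions were present in DR+/+ and 16 and 16 in DR-/- (log2 fold change 0.27 ± 0.195; limma, adjusted p = 0.336), and the shares overlapped. Chromosome 4 had 58 and 34 regions in DR+/+ and 23 and 27 in DR-/- (0.27 ± 0.130; limma, adjusted p = 0.171), with both DR+/+ shares above both DR-/- shares. Chromosome 10 had 43 and 27 in DR+/+ and 20 and 20 in DR-/- (0.20 ± 0.148; limma, adjusted p = 0.354). Chromosome 9, with its block, had 103 and 68 regions in DR+/+ and 56 and 70 in DR-/- (-0.13 ± 0.103; limma, adjusted p = 0.405).

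By the order of the libraries alone, both DR-/- shares were above both DR+/+ shares in 10 of the 19 centromere-proximal windows, and both DR+/+ shares were above in 3. Over all 812 windows the populations were apart in these directions in 29.7% and 32.8%. The other 6 centromere-proximal windows overlapped.

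**Figure D5:**
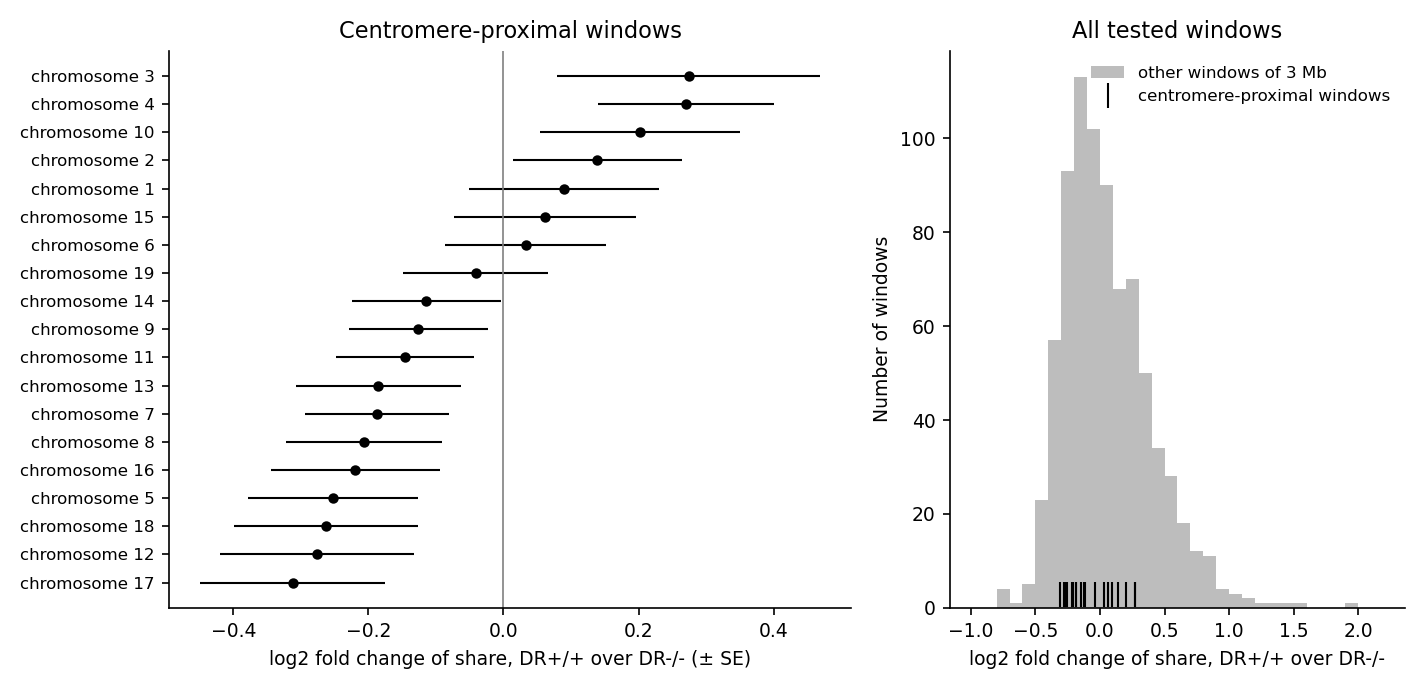
The left panel gives the log2 fold change of the share of regions, DR+/+ over DR-/-, for the centromere-proximal window of each autosome with its SE, and the right panel sets these windows (ticks) beside the distribution over the other tested windows (grey bars, number of windows). The 19 values ran from -0.31 on chromosome 17 to 0.27 on chromosome 3, inside the range of the other windows.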

How the data were processed

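The submitters' processing notes list Bowtie2 2.3.0, SAMtools 0.1.19, FastQC 0.10.1 and the build mm9, without roles. For the peak caller, the read shift and the handling of duplicate or multiply mapped reads, the method is not given in the sources used here. The authors deposited 1 peak list per library, with a score (10 times the −log10 q-value), a fold enrichment (ratio) over local background, −log10 p-values and −log10 q-values, used here within a list only. The deposited summit position was not used.

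Summit pileup and background were solved from fold = (pileup + 1)/(background + 1) and a Poisson p-value, and gave whole numbers within 0.001 of the −log10 p-value for 100% of peaks. Windows of 3 Mb were fitted with limma 3.58.1 in R 4.3.3 on log2 of (regions + 1) per 1000 autosomal regions, with at least 3 regions on average, which all windows met. Other steps used Python 3.11.15, pandas 2.3.3, NumPy 2.4.6, SciPy 1.17.1 and Matplotlib 3.10.9. Merging, presence classes, pileup recovery, the exact permutation test and the window fit were tested on made-up or simulated data. Intervals are Wilson for shares and Newcombe for differences, cover counting error only and treat regions as independent. Libraries were grouped by their titles. Members, named regions (strongest by mean percentile, widest, nearest to the limit) and tests were chosen with earlier results of these data known. Alternatives were each library left out, stricter or equal lists, other overlaps, limits, windows and pseudocounts, a replicate block, and chromosome 9 left out; settings on background and on members from 3.1 Mb were added after seeing the data. No mm9 genome or annotation was used, so no gene or sequence was joined to a peak.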

Additional observations from a re-analysis of the deposited data

How the results depend on the processing

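Peak lists carry no read counts per library, and 2 libraries per population limit every comparison. The lower member share in DR+/+ kept its sign in all 16 alternatives, from -0.270 to -0.136 points with 1 library left out. With a replicate block by the numbers in the titles it was -0.186 (exact sign-flip permutation test, p = 0.5). The labels do not say whether libraries with the same replicate number were handled together. Over 812 windows the replicate differences of the populations correlated at -0.0612, a value that cannot settle this. The block in limma called 104 windows, 0 of them centromere-proximal. With 1 library left out, the DR+/+-only difference ranged from -3.79 to -1.52 points, the DR-/--only difference from -0.763 to 0.555, and limma called 0 to 74 windows. Limma called 2 windows in the stronger 50% of each list, 123 with a pseudocount of 0.5, and 117 of 2283 windows of 1 Mb. Lists of equal length brought 1 centromere-proximal call, chromosome 14 (log2 fold change -0.46, limma adjusted p = 0.0287). Windows of 1 Mb brought 2, chromosome 3 at 4 to 5 Mb (1.50, limma adjusted p = 0.0193; 16 and 4 regions in DR+/+, 0 and 4 in DR-/-) and chromosome 13 at 5 to 6 Mb (-0.80, limma adjusted p = 0.0216). With the limit at 5 Mb the common difference was 5.89 points and the percentile difference 5.31. The width ratio was 0.977 in the stronger 50% and 1.02 from 3.1 Mb on. The pileup ratio differed by -0.0227 between populations and ranged from -0.0909 to 0.0511 with 1 library left out (0.0511 without DR+/+ replicate 1). The chromosome 9 background difference of 1.50 ranged from -1.81 to 5.71, with -1.24 without DR+/+ replicate 2. The causes were not tested.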
